A study of Mus musculus with 33 samples.

Results

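The insulin-like growth factor (IGF) genes Igf1, Igf1r, Irs1, Irs2, Igfbp2, Igfbp3, Igfbp4, Igfbp5, Igfbp6 and Igfbp7 were followed in PyMT mouse mammary tumors and in tumor-free mammary glands. They were chosen by name, with earlier results of these data known, 10 of the 55487 genes in the deposited counts, and all 10 passed the filter of at least 10 reads summed over the libraries. RNAseq libraries came from 33 mice, 1 library per mouse. MMTV-PyMT tumor mice carry the polyomavirus middle T oncogene under the mouse mammary tumor virus promoter, and tumor-free mice do not. The PyMT and Cre lines were on an FVB background and the floxed line was backcrossed to FVB. The study's methods give no background for the mTmG line. All mice carried MMTV-Cre, which acts mainly in mammary epithelium, and the mTmG reporter, which Cre switches from red to GFP. PTHrP WT mice were Pthrp wt/wt, and PTHrP KO mice were Pthrp flox/flox, so that Cre removes part of Pthlh, the gene of parathyroid hormone-related peptide (PTHrP), in mammary epithelium. Tissue was digested, cells were cultured in medium with fetal bovine serum, and GFP+ cells were sorted before RNA extraction. Levels are therefore those of Cre-expressing cells after culture in serum, not of cells in the animal. PTHrP WT tumors were taken at weeks 6, 8 and 10 (n = 3 each) and week 12 (n = 1), and PTHrP KO tumors at weeks 8, 10 and 12 (n = 3 each). Tumor-free glands came from 2 mice per age, WT at weeks 6, 8, 10 and 12 and KO at weeks 8, 10 and 12. Ages are those of the sample labels, and the protocol text gives a range that ends at week 10.

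IGF-1 is a circulating and local growth factor that binds the IGF-1 receptor, a tyrosine kinase encoded by Igf1r. The active receptor phosphorylates the docking proteins IRS1 and IRS2, which recruit PI3 kinase and pass the signal to AKT. IGF binding proteins (IGFBPs) hold IGFs outside the cell and can limit or prolong their access to the receptor. In the mammary gland IGF-1 is needed for growth of the ducts, and IGFBP5 is known for its rise during involution, when milk-producing cells die.

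Counted reads per library ranged from 28419983 to 130981596 (median 46351179, n = 33). The row of the polyomavirus sequence that holds PyMT had 107 to 7489 reads in the 19 tumors and 0 reads in the 14 glands. Pthlh had reads in every library, from 1.46 to 6.67 CPM (counts scaled to a common TMM library size) in WT tumors and 1.35 to 2.29 in KO tumors, and from 2.93 to 7.72 in WT glands and 2.79 to 8.52 in KO glands. Counts per gene include the exons that Cre leaves in place, so they cannot check the KO label. Reads on ribosomal RNA genes were at most 0.447% of counted reads in WT libraries and reached 18.8% in KO libraries, 4 of which were over 5%. These were 3 of the 6 KO glands (median 6.2%) and 1 of the 9 KO tumors (median 0.952%), so the share also differed between KO tissues. The luminal keratins Krt8 and Krt18 were abundant in both tissues (Krt8 median 3253 CPM in tumors and 3542 in glands), while other luminal markers differed between them, as given with the basal markers. Adipocyte, endothelial and lymphocyte marker lists had the lowest sums, at most 40.1, 61.6 and 30.2 CPM. The fibroblast list was carried by Fn1 and the macrophage list by Cd14. Dpt, Lum, C1qb and Fcgr1 were at 0 in 6 to 10 libraries, and Col3a1, Adgre1, C1qa and C1qc in 2 to 4. Col1a1, Col1a2, Pdgfra, Pdgfrb, Dcn and Thy1 had reads in every library, as did Csf1r, Cd68, Mrc1 and Lyz2. Their medians in tumors ran from 1.386 (Thy1) to 9.059 CPM (Col1a1) and from 0.3379 (Mrc1) to 3.998 CPM (Csf1r). Fewer cells of a type and less RNA per cell cannot be told apart in these bulk libraries.

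Igfbp2 and Igfbp5 are neighbours on chromosome 1, and their levels differed in opposite directions between tumors and glands. In GENCODE M21 on GRCm38, Igfbp2 spans chr1:72824503-72852474 on the plus strand and Igfbp5 spans chr1:72857932-72874884 on the minus strand. They point toward each other, 5.46 kb apart, with 0 annotated genes lying wholly between them. Irs2, the member that differed between PTHrP WT and KO tumors, spans chr8:10984681-11008458 on the minus strand. The promoters of these 3 genes are shown because Igfbp2 and Igfbp5 are neighbours with opposite differences and Irs2 carries the genotype difference. Each window of 300 bases runs from upstream of the RefSeq start to just inside the RefSeq transcript on GRCm38.p6, written 5′ to 3′ on the gene's strand. The RefSeq start of Irs2 lies upstream of the GENCODE start, so its window lies wholly outside the GENCODE span given here, and the marked letters are placed relative to the RefSeq start alone. The windows are chr1:72874816-72875115 (minus) for Igfbp5, chr1:72824230-72824529 (plus) for the first of the 2 listed starts of Igfbp2, and chr8:11008880-11009179 (minus) for Irs2. Capitals mark TATTTAA in Igfbp5, the GC box GGGCGG in Igfbp2, and the E-box CACGTG followed by TGTTTTG, the letters of a FoxO-type insulin response element, in Irs2.
Igfbp5: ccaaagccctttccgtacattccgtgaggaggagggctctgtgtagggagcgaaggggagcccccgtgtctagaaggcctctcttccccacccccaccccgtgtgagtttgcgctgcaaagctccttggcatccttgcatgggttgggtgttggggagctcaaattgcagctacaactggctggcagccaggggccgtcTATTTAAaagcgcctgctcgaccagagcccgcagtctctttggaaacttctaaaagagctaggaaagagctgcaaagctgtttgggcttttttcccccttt
Igfbp2: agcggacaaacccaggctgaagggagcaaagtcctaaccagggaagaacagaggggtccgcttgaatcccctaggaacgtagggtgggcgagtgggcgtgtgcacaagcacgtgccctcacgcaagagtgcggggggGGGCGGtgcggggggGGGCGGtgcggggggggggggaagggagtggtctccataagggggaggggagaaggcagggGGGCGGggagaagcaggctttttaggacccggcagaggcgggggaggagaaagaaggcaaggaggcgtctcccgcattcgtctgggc
Irs2: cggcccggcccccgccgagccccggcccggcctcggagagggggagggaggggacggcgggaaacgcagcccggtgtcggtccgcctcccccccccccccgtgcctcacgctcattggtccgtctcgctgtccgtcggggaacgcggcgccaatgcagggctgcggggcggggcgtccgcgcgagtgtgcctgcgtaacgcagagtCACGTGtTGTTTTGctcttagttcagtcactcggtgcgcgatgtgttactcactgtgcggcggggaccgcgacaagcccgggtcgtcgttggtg

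Promoter windows of all 10 genes were found in the RefSeq table, 11 windows in all, and were searched on both strands. TATTTAA occurred in 4.51% of 32851 mouse promoters and in 1 of the 11 windows, that of Igfbp5. GGGCGG occurred in 35.7% of all promoters and stood 3 times in the Igfbp2 window. It also stood in the windows of Irs1, Igfbp7, Igf1r and Irs2, the last once and left in lower case. CACGTG occurred in 7.15% of all promoters and TGTTTTG in 6.28%, and both were present in the windows of Irs2 and Irs1, the 2 receptor substrates. The letters CACGTG also stood in the Igfbp2 window. The core of a cAMP response element, TGACG, present in 20.8% of promoters, was found in the Irs1 window and was not in the Irs2 window. TATAAA (13.6% of promoters) was found in the windows of Igfbp4 and Igfbp6. GC content ran from 49.7% (Igfbp6) to 76% (Igf1r). Matches are descriptions of the letters, not binding sites.

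Expression levels were compared between genes per kilobase of exon. In tumors Igfbp5 ranked first, at a median of 346.6 CPM per kb (lowest library 87.0, highest 1151, n = 19), followed by Igfbp7 at 173.3. Irs1 (16.6), Igfbp4 (10.9), Igfbp3 (10.6), Irs2 (7.17), Igfbp2 (6.82) and Igf1r (4.21) came next. Igf1 (0.129) and Igfbp6 (0.0756) were lowest, with 2 KO tumors at 0 reads for Igfbp6. In tumor-free glands Igfbp7 ranked first, at 181.9 CPM per kb (76.1 to 281.7, n = 14). Igfbp3 (58.6) and Igfbp2 (57.9) followed, and Igfbp5 came after them at 26.4 (3.15 to 93.5). The median of Igfbp2 was above that of Igfbp3 in WT glands (111.7 and 54.01) and below it in KO glands (48.65 and 63.19). Irs1 (16.1), Irs2 (12.5), Igf1r (6.74), Igfbp4 (6.26), Igfbp6 (1.12) and Igf1 (0.355) completed the order. Most neighbours in these orders had overlapping ranges and did not differ beyond the spread between libraries. The exceptions were the steps from Igfbp7 to Irs1 and from Igf1r to Igf1 in tumors, and the step from Irs2 to Igf1r in glands. Reads of the growth factor itself were few, between 15 and 486 per library.

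**Figure D1:**
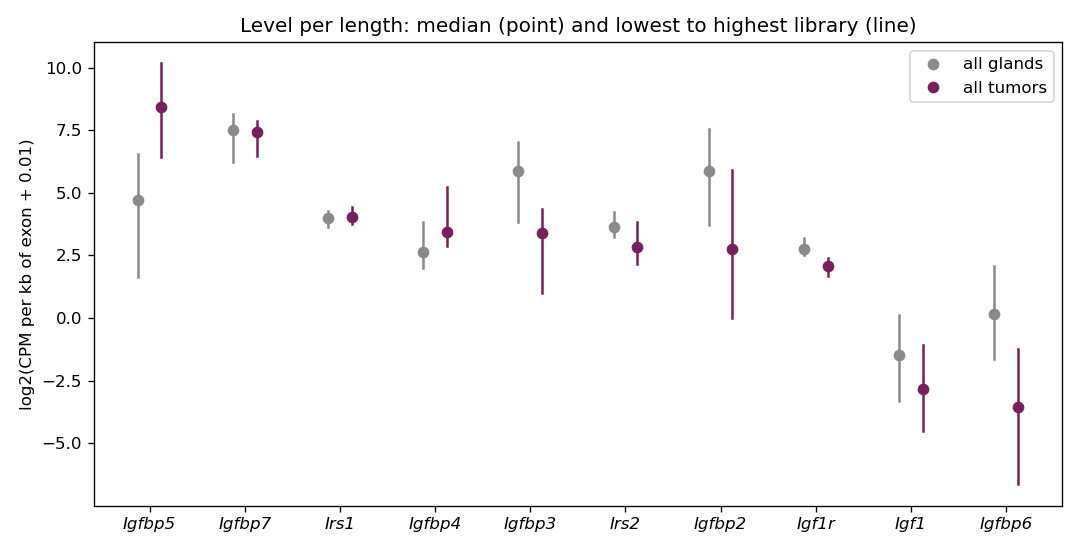
Level per length of each gene on a log2 scale of CPM per kb of exon plus 0.01, with points at the median and lines from the lowest to the highest library, for 19 tumors and 14 glands. Igfbp5 stood at a median of 346.6 CPM per kb in tumors and 26.4 in glands, and Igfbp7 was near 180 in both tissues (173.3 and 181.9).

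The first question was how PyMT tumors differ from tumor-free glands of the same genotype. In PTHrP WT mice, averaged over weeks 6, 8 and 10, 8 of the 10 genes passed the test, 2 higher and 6 lower in tumors. Of all 36527 genes tested, 15.7% passed it, 6.21% higher and 9.53% lower. A gene was called a DEG when its fold change was over 1.5 and its Benjamini-Hochberg adjusted p was under 0.1 in edgeR's quasi-likelihood test over all libraries. The median log2 fold change of the 10 genes was -0.93, against 0.03 over all genes tested. In PTHrP KO mice, averaged over weeks 8, 10 and 12, 7 of the 10 genes passed, 2 higher and 5 lower, against 10.6% of all genes (5.16% higher and 5.44% lower). Their median was -0.68, against 0.09 over all genes. Tumors and glands were independent mice, and each genotype had its own controls.

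The receptor was lower in tumors at every age. Igf1r in WT tumors was 54.1, 55.2 and 55.0 CPM at week 6, 61.0, 66.3 and 62.4 at week 8 and 72.1, 70.7 and 56.0 at week 10. In WT glands it was 97.1 and 110.4 at week 6, 115.5 and 130.9 at week 8, 110.8 and 108.3 at week 10, and 101.2 and 120.01 at week 12. KO tumors ran from 64.3 to 89.2 CPM (median 73.8, n = 9) and KO glands from 101.8 to 154.4 (median 124.8, n = 6). All 19 tumors, the WT tumor of week 12 at 82.2 CPM included, lay below all 14 glands, a separation seen in 1.14% of all genes in either direction. Igf1r fell by 0.87 on the log2 scale in WT mice (standard error 0.082, 1.83-fold, adjusted p = 2.113e-08 from edgeR) and fell by 0.74 in KO mice (standard error 0.082, 1.67-fold, adjusted p = 5.44e-07). It was a DEG at all 6 ages tested singly, with log2 fold changes from -0.96 to -0.69.

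**Figure D2:**
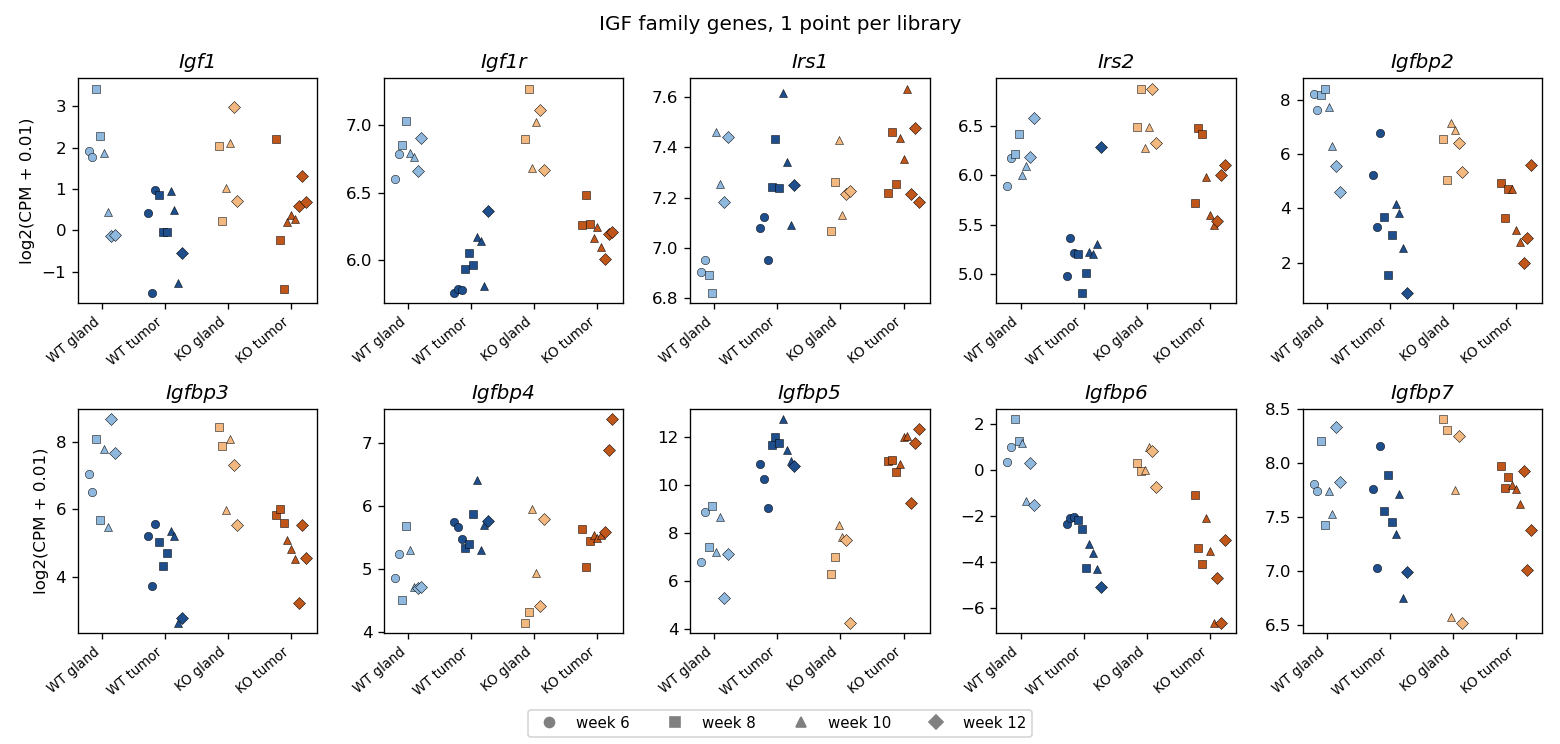
Level of each gene in every library on a log2 scale of CPM plus 0.01, grouped by genotype and tissue, with the marker shape giving the age in weeks. Igf1r tumors (54.1 to 89.2 CPM) lay below all glands (97.1 to 154.4 CPM), and Irs1 and Igfbp7 overlapped in all classes.

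The docking proteins differed from each other. Irs2 was 28.1 to 41.1 CPM in WT tumors of weeks 6, 8 and 10 (median 36.9, n = 9) and 59.3 to 85.5 CPM in their glands (median 70.3, n = 6), with no overlap. It fell by 0.98 on the log2 scale (standard error 0.12, 1.98-fold, adjusted p = 1.093e-06, edgeR). In KO mice Irs2 was 45.3 to 89.3 CPM in tumors (n = 9) and 77.4 to 117.7 CPM in glands (n = 6), which overlapped. It fell by 0.62 (standard error 0.12, 1.54-fold, adjusted p = 0.0006502, edgeR), close to the fold threshold, and in 5 of 15 fits that left out 1 library it was under 1.5-fold (lowest size -0.51) with every adjusted p at or under 0.005794. Those 5 libraries were KO gland week 8 replicate 2, week 10 replicate 2 and week 12 replicate 1, and KO tumor week 8 replicate 1 and week 12 replicate 1. Irs1 was 123.7 to 198.5 CPM in tumors and 113.1 to 176.3 CPM in glands over all ages. Its log2 fold change was 0.19 in WT mice (standard error 0.082, adjusted p = 0.1133) and 0.14 in KO mice (standard error 0.082, adjusted p = 0.345), neither past the test. The 95% intervals of the Irs1 ratio, 1.02 to 1.28 in WT and 0.985 to 1.23 in KO mice, lay within the 1.5-fold threshold.

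The growth factor Igf1 was low throughout. It was 0.341 to 1.97 CPM in WT tumors (median 1.32, n = 9) and 1.35 to 10.8 CPM in WT glands of the same ages (median 3.71, n = 6). It fell by 1.75 on the log2 scale (standard error 0.45, 3.36-fold, adjusted p = 0.006618, edgeR). In KO tumors it was 0.362 to 4.62 CPM (median 1.28) and in KO glands 1.15 to 7.95 (median 3.05). The KO log2 fold change of -1.07 (standard error 0.45) did not pass (adjusted p = 0.1375, edgeR). It lay near the threshold, and Igf1 was called lower in KO tumors with DESeq2 (adjusted p = 0.0641), no filter on low counts (0.0249), filterByExpr (0.0957), the rRNA share as a covariate (0.0589), without libraries over 5% rRNA (0.0624) and in 3 of 15 fits that left out 1 library. A difference between the genotypes in the Igf1 change was therefore not shown, and the direct test over weeks 8 and 10 gave -0.92 (standard error 0.80, unadjusted p = 0.2611). The KO tumor of week 8 at 4.62 CPM was the highest of the 19 tumors, and without it the value was -1.64 (adjusted p = 0.00674). Over all alternatives that left out 1 library the KO value ran from -1.64 to -0.53.

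Igfbp5 was the most strongly raised of the binding proteins. In WT tumors it was 1865, 1213 and 522 CPM at week 6, 3209, 4047 and 3413 at week 8, 6914, 2837 and 2052 at week 10 and, in the single tumor from week 12, 1766. In WT glands it was 111 and 464 CPM at week 6, 171 and 561.4 at week 8, 146 and 400 at week 10 and 38.9 and 137 at week 12. Only 1 tumor, at week 6, fell below the highest gland. In KO tumors Igfbp5 was 606 to 5134 CPM (median 2082, n = 9) and in KO glands 18.9 to 323 CPM (median 166, n = 6), with no overlap. It rose by 3.06 on the log2 scale in WT mice (standard error 0.53, 8.36-fold, adjusted p = 0.0001098, edgeR) and by 4.19 in KO mice (standard error 0.56, 18.2-fold, adjusted p = 6.641e-06). Without KO gland week 12 replicate 1 the KO value was 5.06, and over all fits that left out 1 library it ran from 3.92 to 5.06 in KO and from 2.83 to 3.52 in WT mice. It was a DEG at every age tested except WT week 6 (log2 fold change 2.06, standard error 0.87, adjusted p = 0.2285). The macrophage marker sum was also higher in tumors (151 to 418 CPM, against 62.8 to 172 in glands). Almost all of it was Cd14 (median 209 CPM in tumors and 75.2 in glands). Csf1r (3.998 and 4.312), Cd68 (2.977 and 3.083) and Lyz2 (2.564 and 1.831) had lower medians. C1qa, C1qb, C1qc, Adgre1, Fcgr1 and Mrc1 had medians under 1 CPM. Of the 10 macrophage markers 1 (Cd14) was higher and 3 were lower in WT tumors (median log2 fold change -0.25), and 3 were higher and 0 lower in KO tumors (median 0.13). Igfbp5 followed that sum within tumors (r = 0.83, n = 19) and not within glands (r = -0.08, n = 14), and the part of macrophages was not tested.

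Igfbp4, which binds both IGFs and is cut by the protease PAPP-A, was also higher in tumors. It was 39.5 to 85.7 CPM in WT tumors (median 50.8, n = 9) and 22.8 to 51.3 CPM in WT glands (median 33.5, n = 6). The log2 fold change was 0.59 (standard error 0.24, 1.501-fold, adjusted p = 0.09931, edgeR), just inside both thresholds, and the call was lost in 12 of 15 fits that left out 1 library (0.43 to 0.82). In KO mice it was 32.8 to 167.8 CPM in tumors and 17.7 to 62.4 CPM in glands. There it rose by 0.90 averaged over ages (standard error 0.25, 1.86-fold, adjusted p = 0.01258), but not at every age. At KO week 10 tumors and glands had like means (46.0 and 46.4 CPM, log2 fold change -0.01, standard error 0.41). The value was 1.16 at week 8, which did not pass (adjusted p = 0.2326, edgeR), and 1.54 at week 12, which passed (adjusted p = 0.03749). The week 12 call was lost without KO tumor week 12 replicate 3 (1.12) or KO gland week 12 replicate 1 (1.01). The highest values were 118.5 and 167.8 CPM in 2 KO tumors of week 12.

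Igfbp2, Igfbp3 and Igfbp6 were lower in tumors of both genotypes. Igfbp2 in WT tumors was 38.1, 9.83 and 109.9 CPM at week 6, 12.9, 2.90 and 8.10 at week 8 and 18.1, 14.1 and 5.84 at week 10, and the single week 12 tumor had 1.84. WT glands were at 296.4 and 197.9 CPM at week 6, 289.1 and 344.3 at week 8, 214.5 and 79.0 at week 10 and 47.9 and 24.4 at week 12. The week 6 tumor at 109.9 CPM was the only WT tumor of weeks 6 to 10 above the lowest gland of those ages. Igfbp2 fell by 3.69 on the log2 scale in WT mice (standard error 0.51, 12.9-fold, adjusted p = 5.633e-06, edgeR). In KO mice it was 3.95 to 48.4 CPM in tumors and 33.5 to 141.5 CPM in glands, and fell by 2.11 (standard error 0.49, 4.32-fold, adjusted p = 0.003349). Without KO tumor week 12 replicate 3 the KO value was -2.72, in a range from -2.72 to -1.80 over the fits that left out 1 library. The difference between the genotypes in this change, over weeks 8 and 10, was -2.08 (standard error 0.86, unadjusted p = 0.02363, adjusted p = 0.8457, edgeR) and did not pass.

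Igfbp3, the main carrier of IGFs in serum, was 6.25 to 47.9 CPM in WT tumors of weeks 6, 8 and 10 and 44.4 to 274.3 CPM in their glands. It fell by 2.21 on the log2 scale (standard error 0.44, 4.62-fold, adjusted p = 0.000535, edgeR). In KO mice it was 9.42 to 64.6 CPM in tumors and 46.9 to 348.9 CPM in glands, and fell by 2.29 (standard error 0.44, 4.90-fold, adjusted p = 0.0004706). Tumors and glands overlapped narrowly in each genotype. Igfbp6, which prefers IGF-2 to IGF-1, had few reads, 2 to 24 in WT tumors and 15 to 290 in WT glands, with 0 to 39 in KO tumors and 12 to 74 in KO glands. WT tumors (0.0407 to 0.235 CPM) did not overlap WT glands of the same ages (0.381 to 4.67), and KO tumors (0 to 0.464) did not overlap KO glands (0.591 to 2.01). Igfbp6 fell by 3.90 in WT mice (standard error 0.51, 15.0-fold, adjusted p = 2.61e-06) and by 3.53 in KO mice (standard error 0.53, 11.6-fold, adjusted p = 2.581e-05). Without WT gland week 10 replicate 1 the WT value was -3.30. Across the WT set, 3 of the 10 genes had tumors and glands that did not overlap (Igf1r, Irs2 and Igfbp6, all lower), against 5.97% of all genes. In the KO set there were 3 (Igf1r and Igfbp6 lower, Igfbp5 higher), against 3.43%.

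Igfbp7 binds IGFs weakly and is the most abundant of the 10 genes in glands per length. It was 107.8 to 285.2 CPM in tumors and 92.0 to 340.5 CPM in glands. Its log2 fold change was -0.20 in WT mice (standard error 0.22, adjusted p = 0.634) and -0.06 in KO mice (standard error 0.22, adjusted p = 1), neither past the test, with 95% intervals of the ratio from 0.649 to 1.17 and from 0.713 to 1.29. Igfbp7 overlaps Polr2b on the opposite strand, which had 121 to 169 CPM, and the strand option chosen for counting is not given in the sources used here. The genes opposite Igf1, Irs1 and Irs2 had at most 19 reads in any library.

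**Figure D3:**
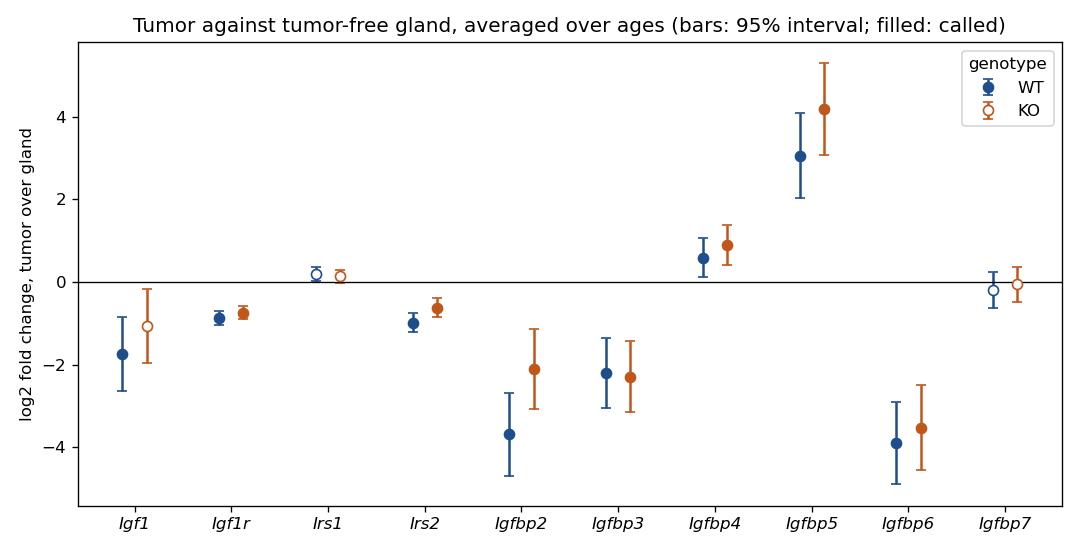
Log2 fold change of tumors over glands for each gene in WT (weeks 6, 8 and 10) and KO mice (weeks 8, 10 and 12), with bars for the 95% interval and filled points for genes past the test. The largest rise was that of Igfbp5 (3.06 and 4.19) and the largest fall in WT and in KO mice was that of Igfbp6 (-3.90 and -3.53), with Igfbp2 at -3.69 and -2.11.

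At single ages fewer genes passed, with 2 glands and 3 tumors each. In WT mice 3 of the 10 genes were DEGs at week 6 (5.86% of all genes), 7 at week 8 (9.19%) and 5 at week 10 (6.13%). In KO mice 2 were DEGs at week 8 (2.49% of all genes), 6 at week 10 (5.66%) and 5 at week 12 (6.11%). The week 6 genes in WT mice were Igf1r, Irs2 and Igfbp6, all lower. At week 8 Igf1, Igfbp2, Igfbp3 and Igfbp5 joined them, with Igfbp2 at -5.30 (standard error 0.94, adjusted p = 0.0005164, edgeR). The KO week 8 genes were Igf1r and Igfbp5, and both calls were lost without the libraries over 5% rRNA, which left 1 gland at that age. Their log2 fold changes were then -0.61 and 4.515, against -0.76 and 4.19 with all libraries. Leaving out a gland kept a single gland at that age, so calls lost in such fits cannot be laid to the library left out. KO gland week 10 replicate 2 had the highest lymphocyte sum (30.2 CPM, against 1.30 to 8.19 in the others). Without it the KO week 10 log2 fold changes were 3.38 (Igfbp5), -3.31 (Igfbp2), -3.16 (Igfbp6), -1.14 (Igfbp3), -0.57 (Irs2) and -0.51 (Igf1r). With all libraries they were 3.61, -3.19, -3.76, -2.54, -0.68 and -0.69. At KO week 12, without gland replicate 1, the members that lost their calls were at -3.47 (Igfbp6), 1.01 (Igfbp4), -0.53 (Igf1r) and -0.42 (Irs2). With all libraries these were -4.50, 1.54, -0.77 and -0.73. The part of the lymphocyte sum in the KO week 10 calls was not tested. Each of KO gland week 10 replicate 1 and KO tumor week 10 replicates 2 and 3, left out singly, took the week 10 count to 3. KO week 8 went to 0 without gland replicate 2 and to 1 without gland replicate 1, and WT week 6 went to 1 without tumor replicate 1 or gland replicate 2. Without WT gland week 8 replicate 1 the 7 WT calls of week 8 became 4, and without WT gland week 10 replicate 1 the 5 of week 10 became 2.

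The glands held more basal or myoepithelial RNA than the tumors. The summed level of 10 basal markers was 4693 to 17361 CPM in WT glands and 4998 to 16599 in KO glands, against 1130 to 3248 in WT tumors and 1548 to 4814 in KO tumors. All 10 markers passed the test as lower in WT tumors and 9 of 10 in KO tumors, and none was at 0 in any library. The luminal sum, carried by Krt8 and Krt18, was 5924 to 10524 CPM in glands and 4220 to 9779 in tumors. Of the 10 luminal markers 1 was higher and 4 were lower in WT tumors, and 3 were higher and 3 lower in KO tumors. Among them Elf5, a factor of milk-forming luminal cells, rose by 3.01 and 2.21 on the log2 scale in WT and KO tumors, and the hormone receptor gene Pgr fell by 5.47 and 4.25, Esr1 by 2.02 and 0.84 and Krt19 by 2.18 and 1.41. In WT tumors 7 of 10 fibroblast markers (median log2 fold change -1.78) and 6 of 10 endothelial markers (median -1.55) were also lower, against 2 and 0 of 10 in KO tumors. The median fibroblast sum was 3579 CPM in WT glands and 1587 in WT tumors, and 3670 and 1626 in KO mice. Igfbp6 moved with the basal sum within each tissue (r = 0.71 over 19 tumors and 0.76 over 14 glands, log2 scale), as did Igf1 (0.56 and 0.86), Igfbp2 (0.61 and 0.48), Igfbp3 (0.51 and 0.48) and Igfbp7 (0.43 and 0.48), the last of which did not pass the test between tumors and glands. For Igfbp5 the values were 0.05 and 0.25 and for Igf1r -0.23 and 0.43. With the luminal sum Igf1r had -0.73 and -0.53, Irs2 -0.45 and -0.64, Irs1 -0.58 and 0.14, and Igfbp5 -0.53 and 0.14. Igfbp5 also had -0.64 within tumors and 0.33 within glands with the fibroblast sum. The libraries share depth and normalization, and the part of basal, luminal, fibroblast or endothelial cells in the differences between tumors and glands was not tested.

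**Figure D4:**
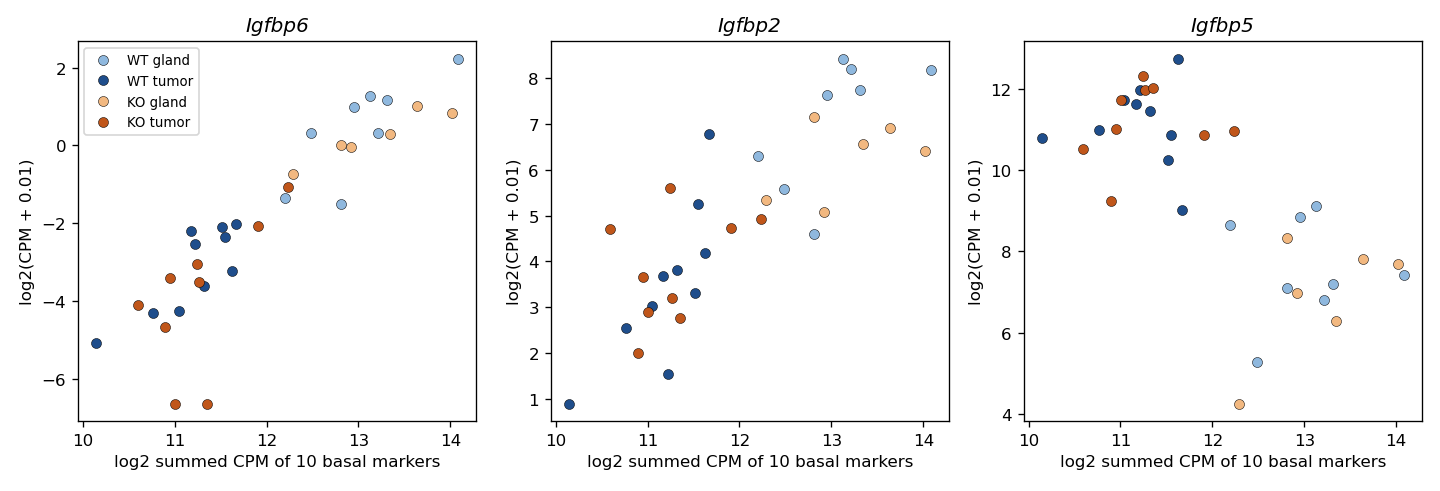
Level of Igfbp6, Igfbp2 and Igfbp5 (log2 CPM plus 0.01) against the log2 summed CPM of 10 basal markers, 1 point per library. Within tumors the correlation was 0.71 for Igfbp6, 0.61 for Igfbp2 and 0.05 for Igfbp5.

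The next question was whether loss of PTHrP in the epithelium alters these genes. Among tumors of weeks 8 and 10, 1 of the 10 genes differed between PTHrP WT and KO mice, against 0.512% of all genes, and with tumors matched by stage (WT weeks 6, 8 and 10 against KO weeks 8, 10 and 12) it was again 1, against 1.11%. In both cases the gene was Irs2, lower in WT. WT tumors had 31.6, 41.1 and 37.2 CPM of Irs2 at week 6, 36.8, 28.1 and 32.3 at week 8 and 37.4, 36.9 and 39.6 at week 10. KO tumors had 52.9, 89.3 and 85.4 CPM at week 8, 63.2, 48.4 and 45.3 at week 10 and 46.5, 64.0 and 69.0 at week 12. These 9 WT tumors all lay below the 9 KO tumors, and the share of all genes separated in this way was not computed. The single WT tumor of week 12, which enters no test, had 77.9 CPM. It lay within the range of all KO tumors but above the 3 KO tumors of its own age. At week 12 the order was thus the reverse, on 1 WT library. The WT minus KO difference was -0.84 on the log2 scale at weeks 8 and 10 (standard error 0.14, 1.80-fold, adjusted p = 0.004221, edgeR) and -0.80 over stages (standard error 0.11, 1.74-fold, adjusted p = 0.0004684).

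Irs2 values are also given by the rRNA left in KO libraries. The 3 KO tumors with an rRNA share no higher than the highest WT share (0.447%) had 52.9, 63.2 and 69.0 CPM, all above the 9 WT tumors of weeks 6 to 10. With only such libraries the differences were -0.71 (standard error 0.13, adjusted p = 0.07492) and -0.77 (standard error 0.11, adjusted p = 0.01282). Each KO age then held a single tumor, assumed to vary like the other groups, and the value for weeks 8 and 10 rested on 2 KO tumors. With the rRNA share as a covariate the differences were -0.86 and -0.81 (adjusted p = 0.009437 and 0.00129). The rRNA share moved with genotype, and the part of rRNA carryover in the Irs2 difference was not tested. Leaving out any 1 tumor gave -0.95 to -0.76 at weeks 8 and 10 and -0.87 to -0.75 over stages. In tumor-free glands Irs2 was 64.3 to 96.0 CPM in WT and 77.4 to 117.7 CPM in KO mice of weeks 8, 10 and 12, a difference of -0.31 (standard error 0.13, adjusted p = 0.339) that did not pass. None of the 10 genes passed between WT and KO glands in edgeR (0.906% of all genes did) or DESeq2, with the range of log2 differences from -0.40 (Igf1) to 0.56 (Igfbp2), and Irs2 alone had an unadjusted p under 0.05 (0.02902). Tested directly, the tumor effect differed between WT and KO mice (weeks 8 and 10) in 0 of the 10 genes in edgeR (0.00548% of all genes) and in 0 in DESeq2. Irs2 was at -0.49 there (standard error 0.21, unadjusted p = 0.0298, adjusted p = 0.868), so the difference in tumors was not shown to exceed that in glands.

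**Figure D5:**
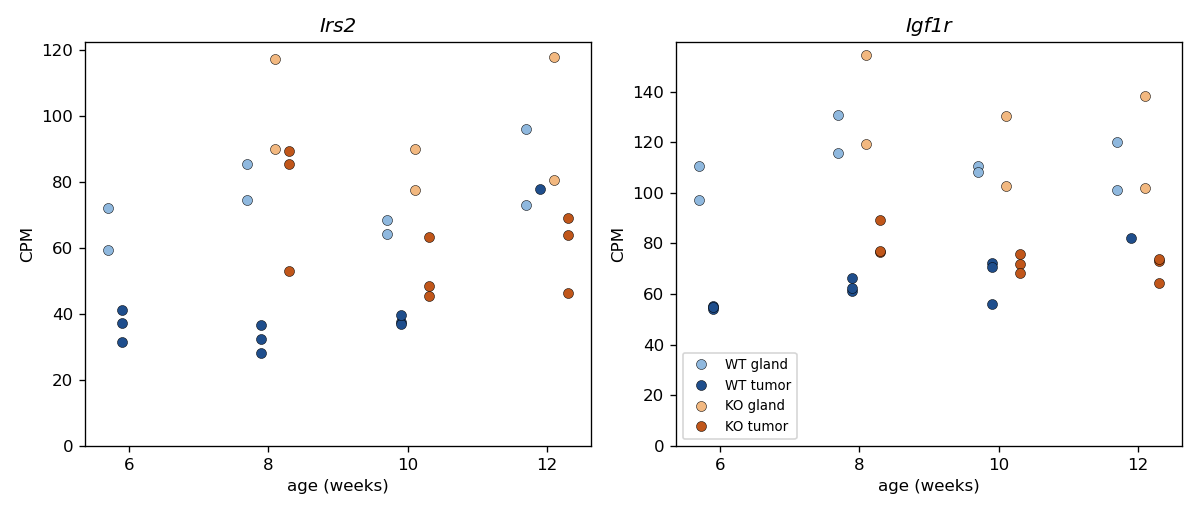
CPM of Irs2 and Igf1r by age in weeks, 1 point per library, colored by genotype and tissue. For Irs2 the 9 WT tumors of weeks 6 to 10 (28.1 to 41.1 CPM) sit below the 9 KO tumors (45.3 to 89.3 CPM). The WT tumor of week 12 (77.9 CPM) sits above the 3 KO tumors of week 12 (46.5 to 69.0 CPM).

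Igf1r was 54.1 to 72.1 CPM in these 9 WT tumors and 64.3 to 89.2 CPM in the 9 KO tumors. The stage-matched difference was -0.28 (standard error 0.075, adjusted p = 0.06517), under the 1.5-fold threshold, and at weeks 8 and 10 it was -0.24 (adjusted p = 0.3247). For the other 8 genes the differences at weeks 8 and 10 ran from -0.85 (Igfbp2, standard error 0.55, adjusted p = 0.5989) to 0.58 (Igfbp5, standard error 0.51, adjusted p = 0.7105). Of these 8, Irs1 alone had a 95% interval of the ratio (0.849 to 1.08) that left out a 1.5-fold difference in both directions.

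Changes with age were examined within tumors and within glands. None of the 10 genes passed between WT tumors of weeks 10 and 6 (0.011% of all genes did, edgeR), and DESeq2 called 0. Igfbp5 was 1.71 higher at week 10 (standard error 0.74, unadjusted p = 0.02899, adjusted p = 0.554) and Igfbp2 had a log2 fold change of -2.05 (standard error 0.80, unadjusted p = 0.0164, adjusted p = 0.5272). Igf1r and Irs1 also had unadjusted p under 0.05 there, at 0.28 and 0.31. None passed between KO tumors of weeks 12 and 8 (0% of all genes), where Igfbp4 was at 1.41 (standard error 0.37, unadjusted p = 0.0009166, adjusted p = 0.4768) and Igfbp6 at -2.04 (unadjusted p = 0.04026). DESeq2 called 1 gene in that comparison, Igfbp4 (1.395, adjusted p = 0.0599). None passed between WT glands of weeks 12 and 6 in edgeR (0.35% of all genes) or DESeq2, where Igfbp2 was at -2.77 (unadjusted p = 0.009909), Igf1 at -1.98 (unadjusted p = 0.03888) and Irs1 at 0.39 (unadjusted p = 0.01939).

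The wider pathway was followed in a list of 53 IGF and insulin signaling genes outside these 10, of which 51 were tested. In WT mice 3 were higher and 6 lower in tumors, with a median log2 fold change of -0.06, and in KO mice 5 were higher and 6 lower, with a median of 0.05. The 9 of 51 called in WT mice stand near the 15.7% of all genes, and the 11 of 51 in KO mice stand beside 10.6%. Among extracellular partners Igfals, which stabilizes IGF in a ternary complex, was higher in WT (1.95, adjusted p = 5.473e-05) and in KO tumors (1.84, adjusted p = 0.0002064). The IGFBP protease gene Pappa was lower in WT tumors (-1.68, adjusted p = 0.0003106), as was Stc2, an inhibitor of that protease (-1.22, adjusted p = 0.003381). The serine protease gene Htra1 was lower in both genotypes (-0.75 and -0.80), and the protease gene Adamts1 was lower in KO tumors (-0.77, adjusted p = 0.04083).

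Inside the cell, Grb10, an inhibitor of insulin and IGF receptors, rose in both genotypes (1.09 and 1.55 on the log2 scale), and its relative Grb14 fell by 0.86 and 0.98. Pik3r1, the main regulatory subunit of PI3 kinase, rose by 1.75 and 1.73, and Pik3r3 rose by 0.79 in KO tumors. Pik3cd, the catalytic subunit typical of leukocytes, fell by 0.78 and 0.83, and Inpp5d, a phosphatase of blood cells, fell by 1.63 and 1.26. Foxo1, a transcription factor that AKT holds out of the nucleus, was higher in KO tumors (0.79, adjusted p = 0.000623). Between WT and KO tumors 0 of the 51 genes passed in edgeR, against 0.512% of all genes at weeks 8 and 10 and 1.11% over stages. Between WT and KO glands 1 of 51 passed, against 0.906% of all genes, which was Grb2 (-0.62, adjusted p = 0.07813), named after its value was seen.

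Some genes followed each other across libraries. Igf1r and Irs2 had r = 0.86 over 33 libraries on the log2 scale, 0.75 within 19 tumors and 0.85 within 14 glands. Igfbp2 and Igfbp6 had 0.86 over all libraries, 0.57 within tumors and 0.74 within glands. The neighbours Igfbp2 and Igfbp5 had -0.60 over all libraries, but -0.16 within tumors and 0.52 within glands, so the opposite pattern was one between tissues. Igfbp4 and Igfbp7 had -0.90 within glands and -0.45 within tumors. Tumors and glands form separate clusters and share library preparation and depth, so these are descriptions without a test.

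Of 13324 genes with a mean of at least 1 CPM, the one most like Igfbp5 was Lrg1, a secreted glycoprotein of the acute phase (r = 0.98 over 33 libraries, 0.92 within tumors and 0.96 within glands), followed by C530043A13Rik and the cholesterol exporter Abca1 (0.97 and 0.96). Igfbp6 was most like Cnn1 (0.95) and Tagln (0.95), smooth muscle proteins of myoepithelial cells, then Slc8a1 (0.95). Igfbp2 was most like the basement membrane collagen Col4a1 (0.92), then Slc8a1 and Kctd4. Igf1r was most like Nav2 (0.95), Adgrg1 and Lrp1. Irs2 was most like the transcription factors Klf4 (0.91) and Nr4a3 (0.90) and the channel Trpv3 (0.89), with values within tumors of 0.88, 0.87 and 0.92. Igfbp3 was most like Apobec1, Maf and Tmem151b (0.91 each). The leading genes were Fkbp7 for Igf1 (0.86), Brwd3 for Irs1 (0.79), Ezr for Igfbp4 (0.80) and Fam214b for Igfbp7 (0.83).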

How the data were processed

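Stranded, rRNA-depleted total RNA libraries from 33 mice were sequenced. Per the study's methods the authors aligned reads with HISAT to GRCm38 with GENCODE M16, removed duplicates with Picard (1.128 in the submitters' processing notes) and deposited HTSeq counts per gene. Which strand option HTSeq was given is not given in the sources used here. A deposited table of signal values holds gene counts that the authors divided by DESeq2 size factors. Of its values 100% came out as whole reads (tolerance 0.01, 35323 genes), but these were not all the same as the deposited counts: 66.7% of the 10 genes' values were identical, and the others differed by up to 5%. It served as an alternative only.

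Counts were fitted in edgeR 4.0.16 (R 4.3.3, limma 3.58.1) by quasi-likelihood with TMM scaling. The fit had 1 coefficient per genotype, tissue and week over all 33 libraries, with 36527 genes of at least 10 summed reads. The 111 rows of spike-ins, reporters and transgenes (0.0778% of reads) were left out. Standard errors were worked back from the log2 fold change and the F statistic of the test. Intervals are 1.96 of these standard errors either way and are approximate. Depth was 28419983 to 130981596 reads. No pair of same-group libraries agreed within sampling noise (lowest chi-square per degree of freedom 37.39, 25 pairs). The members and lists were chosen with earlier results of these data known. All 10 genes were named, with pathway genes called in an averaged tumor effect, at most 12 by size, and the 3 genes most like each member by Pearson r. Alternatives were DESeq2 1.42.0, its size factors, other filters on low counts, a replicate block, the rRNA share as a covariate, the compared groups alone and leaving out each library. Fits that left out 1 library kept the trend of spread estimated from all 33 libraries, so they were not full refits. Recovered reads and 2 rRNA limits were added after seeing the data. The code of the fits was also run on simulated counts, which says nothing about the results here. Gene positions came from GENCODE M21 and promoters from RefSeq (GRCm38.p6).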

Additional observations from a re-analysis of the deposited data

How the results depend on the processing

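The 8 WT and 7 KO genes called in the averaged tumor effects were 7 to 8 and 6 to 8 when 1 library was left out, and Irs2 stayed the called gene between WT and KO tumors under every alternative run (1 of 10 each time). Single ages, with 2 glands each, moved more. At WT week 6 the 3 calls became 5 with DESeq2, 6 with no filter on low counts and 5 with the compared groups alone (2139 genes called in all, against 3065, 2866 and 3004). At KO week 8 the 2 calls became 5 with DESeq2, 5 with no filter, 4 with the compared groups alone, 0 without libraries over 5% rRNA and 0 with only libraries at most at the highest WT rRNA share (909 genes in all, against 1695, 1613, 1416, 191 and 74). At KO week 12 the 5 calls became 0 with the compared groups alone and 3 with only low-rRNA libraries (2233 genes, against 0 and 825). With no filter 2 members were called between WT tumors of weeks 10 and 6 (440 genes, against 4), 1 between KO tumors of weeks 12 and 8 (176 genes, against 0) and 1 between WT glands of weeks 12 and 6 (558 genes, against 128). DESeq2 called 1 in KO tumors (125 genes) and the compared groups alone 2 in WT glands (153 genes). When 1 library was left out, WT calls ran from 1 to 3 (week 6), 4 to 7 (week 8) and 2 to 5 (week 10), and KO calls from 0 to 3 (week 8), 0 to 5 (week 10) and 1 to 5 (week 12). The cause of these shifts was not tested.

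Counts over all genes also moved by more than 1.5 times. WT week 10 had 2240 genes and 995 with the compared groups alone. WT against KO tumors of weeks 8 and 10 had 187 genes, 664 with DESeq2, 573 with no filter, 323 with filterByExpr, 109 with the rRNA covariate, 85 without libraries over 5% rRNA and 45 with only low-rRNA libraries. Over stages 404 became 655, 632, 175 (rRNA covariate), 243 and 29. The 331 genes between WT and KO glands became 741, 722, 509, 50 (rRNA covariate), 67 (compared groups alone) and 27 (without libraries over 5% rRNA).

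Of the values of single genes in the averaged tumor effects, and of Irs2 between WT and KO tumors, 509 kept direction and side of the threshold, 20 lost the call, 8 gained it and 3 changed sign. Single ages are not in this tally. All 8 gains were Igf1 in KO mice, with DESeq2, no filter, filterByExpr, the rRNA covariate, without libraries over 5% rRNA, and without KO tumor week 8 replicate 1, KO gland week 8 replicate 2 or KO gland week 12 replicate 2. All 3 sign changes were Igfbp7 in KO mice, which was not called: 0.32 without KO gland week 12 replicate 1, 0.0045 without KO tumor week 12 replicate 2 and 0.18 without KO gland week 10 replicate 2, in a range from -0.24 to 0.32 over all such fits. Igfbp4 in WT mice lost its call with DESeq2 (0.58, under 1.5-fold), DESeq2's size factors (adjusted p = 0.104) and the replicate block (adjusted p = 0.192). Replicate numbers did not pair libraries: 4 of 18 same-number pairs had a correlation over 0.1 (-0.572 to 0.468). With the replicate block 7 of 10 genes were called in WT and 7 in KO averaged effects, 4, 7 and 5 at WT weeks 6, 8 and 10, and 2, 6 and 5 at KO weeks 8, 10 and 12. Irs2 between WT and KO tumors was -0.84 and -0.79 with it.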
